A study of Monascus purpureus with 6 samples.

Results

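The sugar transporters of *Monascus purpureus* MP2022 described here are the assembled transcripts (unigenes) whose Pfam annotation holds the phrase "Sugar (and other) transporter". They numbered 75 of 24261 unigenes in the deposited table and 75 of the 20381 whose FPKM averaged 0.1 or more over the 6 libraries, since every unigene with the phrase had FPKM listed and passed that minimum. FPKM is fragments per kilobase of transcript per 1000000 fragments, so levels can be compared between transcripts of different length. The samples were wild-type mycelia of 1 strain, taken on day 1 of growth in fermentation medium, with 3 libraries without taurine (control) and 3 with 4.0 g/L taurine. *M. purpureus* is the filamentous fungus of red yeast rice, and taurine is a sulfonic acid derived from cysteine. Neither the number of cultures nor a preparation batch is given in the labels, so p-values measure the spread between these libraries, which may be technical.

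Transporters of this Pfam family belong to the Major Facilitator Superfamily (MFS), membrane proteins that move small solutes across membranes. In fungi many of them are sugar:H+ symporters, which use the proton gradient of the plasma membrane to take up sugar, or facilitators that let hexoses pass down their own gradient. Relatives with the same fold carry maltose, myo-inositol or inorganic phosphate, and yeast is known to switch between hexose transporters of high and low affinity as the sugar supply changes.

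By the annotation in the table the 75 unigenes fell into 6 classes. They held 35 whose KEGG entries named sugar and no substrate of another class (the hxt1 unigene among them), 18 as inositol transporters, 10 as phosphate transporters, 5 as maltose or alpha-glucoside transporters, 1 as a glucose transporter and 6 with another or no substrate in its name. Of the 18 in the inositol class, 8 also carried the KEGG entry for a sugar:H+ symporter, so the border between the classes is not sharp. The unigenes came from 62 assembled genes and had 44 distinct best protein matches, and for 63 unigenes the match was named hypothetical protein. The best match was a *Monascus* protein for 64 (85.3%), an *Aspergillus* protein for 7, a *Penicillium* protein for 2, and a *Byssochlamys* and a *Pyrrhoderma* protein for 1 each. The substrate names are those of the annotation, and no transport was measured. Identifiers are given in full, and their endings (S3A, C2A) are part of the name and not a sample group.

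Here, no sugar transporter passed the adjusted threshold between control and taurine, while 1 transcript held most of the summed level of the family. Among the 75, 0 had an adjusted p of at most 0.05 (limma on log2(FPKM + 1), Benjamini-Hochberg adjustment over all tested unigenes), against 0.0393% of all tested unigenes, or 8 of them. The lowest adjusted p of a member was 0.999 from limma. An unadjusted p under 0.05 was reached by 1 member (1.33%), against 2.66% of all tested unigenes. With limma voom on fragments estimated from FPKM, 2 members (2.67%) fell below an unadjusted p of 0.05, against 2.85% of all tested unigenes, and 0 were called after adjustment. Log2 differences are given as taurine minus control on the log2(FPKM + 1) scale, on which a change of a low transcript appears smaller than it is. They were positive for 36 members (48%, against 54.2% of all tested unigenes) and negative for 39, with a median of -0.029, against a median of 0.022 over all tested unigenes and -0.026 over 347 other MFS unigenes. Without the members annotated as phosphate transporters, 33 of 65 were positive and 32 negative, with a median of 0.014. All directions hold as far as the library names in the deposited table do.

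The highest member was TRINITY_DN1527_c0_g1_i1-S3A (2423 bases), whose best match is the hexose transporter hxt1 of *M. purpureus*. Its FPKM was 789, 3075 and 1442 in control replicates 1, 2 and 3, and 1204, 1273 and 1403 in taurine replicates 1, 2 and 3. Control held both the lowest and the highest of the 6 values, and the taurine libraries lay between them. The means were 1769 ± 1177 (SD, n = 3) and 1293 ± 101 (SD, n = 3), and the log2 difference was -0.23 (SE 0.46, adjusted p = 0.999 from limma). An exact two-sided permutation test gave p = 0.7, where 3 libraries against 3 cannot go below 0.1. Without control replicate 2 the log2 difference was 0.27, so that 1 library set its direction. For comparison, actin (TRINITY_DN1742_c0_g1_i1-S3A) lay at an FPKM of 1190 ± 60.2 in control and 1238 ± 33.8 with taurine (SD, n = 3 each).

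The hxt1 unigene alone held between 64.4% and 82.6% of the summed FPKM of the 75 members in each library. The sum over all 75 was 1227, 3723 and 1880 in control replicates 1, 2 and 3, and 1721, 1708 and 1895 in taurine replicates 1, 2 and 3. It came to 2277 ± 1295 (SD, n = 3) against 1774 ± 104 (SD, n = 3), and the groups overlapped. This was 0.142% to 0.467% of all FPKM in a library, with both ends of the range in the control. Without the hxt1 unigene, the other 74 summed to 437, 648 and 437 in control and to 517, 435 and 492 with taurine.

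**Figure D1:**
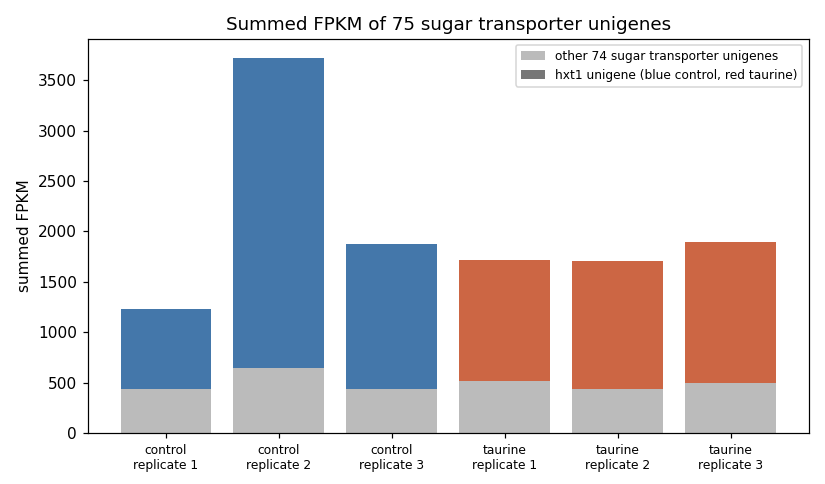
Summed FPKM of the 75 sugar transporter unigenes in each of the 6 libraries (bars from 0), split into the hxt1 unigene (blue in control, red with taurine) and the other 74 (grey). Control replicate 2 stands highest at 3723 and control replicate 1 lowest at 1227, while the 3 taurine libraries lie between 1708 and 1895.

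Levels of the other members were much lower. A mean FPKM of at least 10 was reached by 12 of the 75, between 1 and 10 by 37 and below 1 by 26, with a median of 1.47 (2.45 over all tested unigenes). The members were long, with a median of 2203 bases against 1280 over all tested unigenes. By the estimate from the steps of low FPKM values, a library held about 18140000 to 18700000 fragments, and a single fragment on 2000 bases then stood for 0.0313 to 0.0326 FPKM. On that estimate 55 members held at least 10 fragments in every library and 9 held at most 10 in every library.

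**Figure D2:**
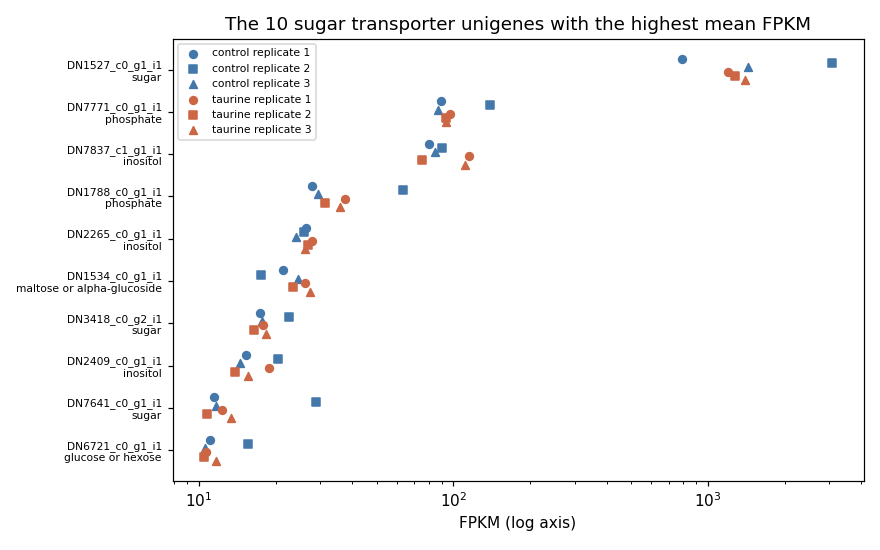
FPKM on a log axis of the 10 sugar transporter unigenes with the highest mean, with 1 point for each library (blue control, red taurine, the marker shape gives the replicate). The hxt1 unigene lies at 789 to 3075, and all other points lie at or below 139; for 7 of the 10 the highest point is control replicate 2.

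Within the class of sugar transporters, 15 members had a positive and 20 a negative log2 difference, with a median of -0.047 that turned to 0.050 without control replicate 2 and to 0.041 without taurine replicate 2. After the hxt1 unigene, TRINITY_DN3418_c0_g2_i1-S3A, annotated as a sugar:H+ symporter, had the next highest level. Its FPKM was 17.4, 22.5 and 17.7 in control and 17.9, 16.5 and 18.4 with taurine, a log2 difference of -0.11 (SE 0.12) that came to 0.0019 without control replicate 2. TRINITY_DN7641_c0_g1_i1-C3A, also a sugar:H+ symporter by its annotation, showed 11.4, 28.8 and 11.7 in control and 12.3, 10.7 and 13.3 with taurine. Its 5 other libraries lay within 10.7 to 13.3, and the log2 difference of -0.36 (SE 0.35) became 0.059 without control replicate 2.

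The only member with an unadjusted p under 0.05 was TRINITY_DN4523_c0_g2_i1-S1A, a unigene of 672 bases with the sugar:H+ symporter entry. Its FPKM was 0.63, 0 and 0 in control and 1.10, 2.57 and 0.85 with taurine, so every taurine library lay above every control library. These values stood for an estimated 4.53, 0 and 0 fragments in control and 7.78, 18.1 and 5.99 with taurine. The log2 difference was 1.03 (SE 0.37, unadjusted p = 0.0295, adjusted p = 0.999 from limma), and the exact permutation test gave its smallest p of 0.1. The difference stayed upward without control replicate 2, at 0.91, but with an unadjusted p of 0.0848 from limma. The counts behind it are too few to set the size of a change.

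Members whose groups did not overlap numbered 3 with taurine higher (4% of members, against 3.78% of all tested unigenes) and 1 with taurine lower (1.33%, against 2.62%). TRINITY_DN4898_c0_g1_i1-S2A, a sugar:H+ symporter by annotation, had 1.14, 0.77 and 0.98 in control and 1.23, 1.32 and 1.57 with taurine. Its log2 difference was 0.28 (SE 0.22) and became 0.20 without control replicate 2. TRINITY_DN2457_c0_g1_i2-C2A, with the same annotation, had 0.89, 1.68 and 1.17 in control and 1.92, 1.80 and 1.33 with taurine. Here the groups overlapped, with a log2 difference of 0.26 (SE 0.24).

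The single unigene with the KEGG entry of a facilitated glucose transporter, TRINITY_DN6721_c0_g1_i1-C1A, had an FPKM of 11.1, 15.6 and 10.6 in control and 10.7, 10.5 and 11.7 with taurine. Control replicate 2 was again the highest library. The log2 difference was -0.15 (SE 0.16) with all libraries and 0.016 without that one.

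For maltose and alpha-glucosides, sugars that starch breakdown releases, the class held 5 members, 4 with a positive and 1 with a negative difference (median 0.039). TRINITY_DN1534_c0_g1_i1-S3A, annotated as a general alpha glucoside:H+ symporter, stood highest at 21.4, 17.5 and 24.5 in control and 26.1, 23.3 and 27.2 with taurine. Control replicate 2 was here the lowest library, and taurine replicate 2 lay below control replicate 3. The means were 21.1 ± 3.50 (SD, n = 3) and 25.5 ± 2.02 (SD, n = 3), with a log2 difference of 0.27 (SE 0.14, unadjusted p = 0.0938, adjusted p = 0.999 from limma). Without control replicate 2 it was 0.15. The summed FPKM of the class was 28.0, 27.1 and 32.4 in control and 35.2, 30.6 and 35.3 with taurine, and these groups overlapped too.

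Inositol transporters bring in myo-inositol, a building block of the membrane lipid phosphatidylinositol. Their 18 unigenes had 10 positive and 8 negative differences, with a median of 0.052 that turned to -0.16 without control replicate 3. TRINITY_DN7837_c1_g1_i1-S3A, the highest of them, had 80.3, 90.2 and 84.6 in control and 115, 75.4 and 111 with taurine. The taurine group held the lowest library as well as the 2 highest, and the log2 difference was 0.21 (SE 0.17). It was 0.11 without taurine replicate 1 and 0.41 without taurine replicate 2. TRINITY_DN2265_c0_g1_i1-S2A had the lowest SE of the 10 highest members, at 26.3, 25.8 and 24.1 in control and 27.8, 26.8 and 26.1 with taurine, a log2 difference of 0.081 (SE 0.077). TRINITY_DN2409_c0_g1_i1-C1A lay at 15.4, 20.4 and 14.4 in control and at 18.8, 13.8 and 15.5 with taurine, with a log2 difference of -0.053 (SE 0.17).

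The largest negative differences among members of mean FPKM at least 1 also lay in the inositol class, and in each of the leading 3 they came from control replicate 2. TRINITY_DN3841_c0_g1_i1-C3A had 5.74, 22.2 and 4.71 in control and 5.15, 4.42 and 4.88 with taurine, so control replicate 2 was 4.46 times the mean of the other 5 libraries. Its log2 difference was -0.73 (SE 0.52) with all libraries and -0.095 without that library. TRINITY_DN5676_c0_g1_i1-S1A, whose best match is named a facilitated glucose transporter, had 9.68, 27.4 and 7.47 in control and 8.73, 7.11 and 7.32 with taurine. It went from -0.66 (SE 0.44) to -0.13 when that library was left out. TRINITY_DN2508_c2_g2_i1-C2A had 2.64, 18.0 and 2.76 in control and 4.68, 2.32 and 3.63 with taurine, and its difference turned from -0.52 (SE 0.66) to 0.26. TRINITY_DN4476_c0_g2_i1-C2A, a low transcript of 0.50, 1.99 and 1.82 in control and 0.86, 0.65 and 0.50 with taurine, had a difference of -0.49 (SE 0.34) and of -0.31 without control replicate 2.

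The largest positive difference among members of mean FPKM at least 1 was that of TRINITY_DN2017_c0_g1_i5-S2A, an inositol transporter by its KEGG entry. Its FPKM was 0.69, 0.78 and 1.04 in control and 1.05, 2.08 and 1.93 with taurine, without overlap, although taurine replicate 1 and control replicate 3 nearly met. The log2 difference was 0.53 (SE 0.26, unadjusted p = 0.0843, adjusted p = 0.999 from limma). The assembled gene holds 3 member isoforms, and the authors' estimate had to divide shared fragments between them, so a single isoform is uncertain. Summed over all isoforms of the gene, of which 4 were tested and 3 are members, the difference was 0.31 (SE 0.17). TRINITY_DN785_c0_g3_i1-C1A, whose best match is a monosaccharide transporter of *Byssochlamys*, had 1.51, 0.88 and 1.71 in control and 1.93, 1.47 and 2.19 with taurine, a difference of 0.28 (SE 0.25) with overlapping groups.

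Phosphate transporters share the fold but carry inorganic phosphate, which the cell needs for nucleotides and phospholipids. Of the 10, 3 had a positive and 7 a negative difference (median -0.11), and control replicate 2 was the highest library for 8. TRINITY_DN7771_c0_g1_i1-S1A had 89.0, 139 and 86.7 in control and 97.3, 93.8 and 93.7 with taurine. TRINITY_DN1788_c0_g1_i1-C1A had 27.8, 63.4 and 29.3 in control and 37.6, 31.4 and 35.7 with taurine. For both, the taurine libraries lay above control replicates 1 and 3 and below control replicate 2. Their log2 differences were -0.11 (SE 0.18) and -0.098 (SE 0.31), and without control replicate 2 they were 0.11 and 0.28. The class median then turned to 0.16, with 8 of 10 positive.

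The study lists TRINITY_DN1926_c0_g1_i2-C2A (4533 bases) among its significantly differentially expressed genes, by its own limits of fold change and p. Those limits are not the adjusted limma threshold used here. The name phosphate transporter is that of the KEGG entry of this unigene. Its FPKM was 0.87, 2.24 and 0.41 in control and 0.15, 0.16 and 0.58 with taurine. Control replicate 3 lay below taurine replicate 3, so the groups overlapped. The log2 difference was -0.67 (SE 0.37, unadjusted p = 0.12, adjusted p = 0.999 from limma) and moved to -0.34 without control replicate 2. The other isoform of its gene, TRINITY_DN1926_c0_g1_i1-C2A, had 4.28, 11.1 and 4.32 in control and 5.64, 5.02 and 5.03 with taurine. The gene summed over both gave -0.29 (SE 0.36). TRINITY_DN5418_c0_g1_i2-C2A, whose best match is a phosphate transporter of *Aspergillus japonicus*, had 3.80, 5.82 and 3.30 in control and 3.77, 2.59 and 2.71 with taurine, a log2 difference of -0.38 (SE 0.24) that was -0.19 without control replicate 2.

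The 6 members with another or no substrate in the name had 4 positive and 2 negative differences (median 0.089, or -0.062 without control replicate 2). The highest, TRINITY_DN1289_c0_g2_i1-S1A, carries the KEGG entry of a lactate transporter and lay at 4.48, 4.12 and 3.84 in control and at 5, 4.35 and 4.69 with taurine. Its log2 difference was 0.14 (SE 0.14). TRINITY_DN7566_c0_g1_i1-C2A, with the KEGG entry of a facilitated trehalose transporter, was the member whose taurine values all lay below control, with 1.08, 1.74 and 0.93 against 0.49, 0.76 and 0.81. Its log2 difference was -0.40 (SE 0.25, adjusted p = 0.999 from limma) and -0.25 without control replicate 2, and the exact permutation p was 0.1. Trehalose is a storage sugar of fungi, and 7 members carried this KEGG entry, with 3 positive and 4 negative differences. Not all of these 7 are in this class. The highest of them, at a mean FPKM of 18.4, is TRINITY_DN3418_c0_g2_i1-S3A of the sugar class.

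**Figure D3:**
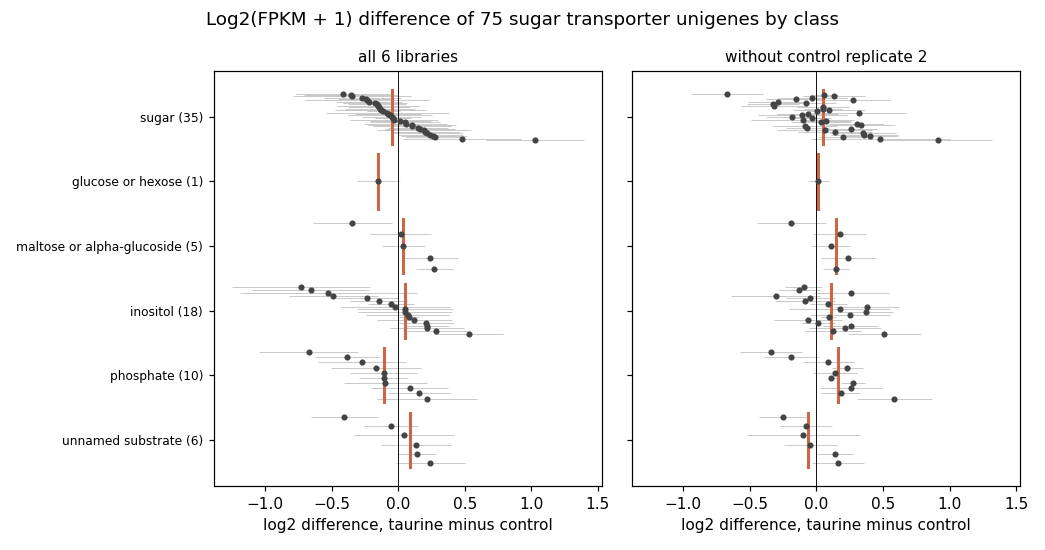
Log2(FPKM + 1) difference, taurine minus control, of each of the 75 sugar transporter unigenes (points, with 1 SE from limma) by class, with the class median as a red line, for all 6 libraries (left) and without control replicate 2 (right). The points lie on both sides of 0 in each class of 5 or more, and the phosphate median moves from -0.11 to 0.16.

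Control replicate 2 stood apart from the other 5 libraries across the family. It was the highest library for 36 of 75 members (48%), against 28.3% of all tested unigenes and 130 of the 347 other MFS unigenes. Among members of mean FPKM at least 1 it was the highest for 26 of 49 (53.1%), against 29.3% of such unigenes. It was at least 2 times the mean of the other 5 for 19 members (25.3%, against 14% of all tested unigenes) and at most 0.5 times for 10 (13.3%, against 20.4%). The other libraries were highest for 4 to 15 members each. No test was made of these shares, because members of 1 library are not independent.

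Measured against the mean of the 6 libraries on the log2(FPKM + 1) scale, the median of the 49 members was 0.28 in control replicate 2 and between -0.093 and 0.061 in the other libraries. Over all tested unigenes of mean FPKM at least 1 it was -0.034 in control replicate 2, and over 192 other MFS unigenes 0.15. Whether the culture, the extraction or the library of this replicate had a part in it was not tested. Among the 49, the taurine SD was below the control SD for 38, against 68.2% of such unigenes. In bulk RNA, more transcript per cell and more cells that make it cannot be told apart.

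**Figure D4:**
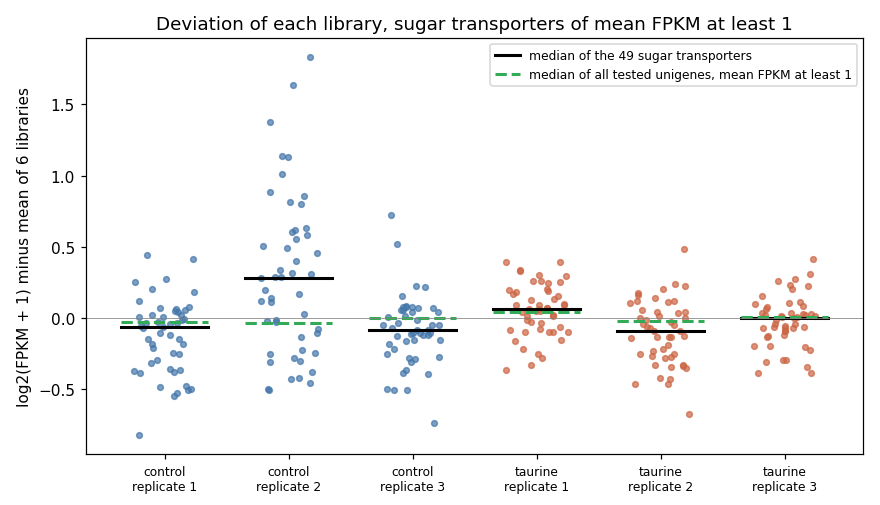
Log2(FPKM + 1) of the 49 sugar transporters with a mean FPKM of at least 1 in each library, minus the mean of the 6 libraries (points, spread sideways to be seen), with their median (black) and the median of all tested unigenes of that level (green dashes). The black line lies at 0.28 in control replicate 2, whereas the green line lies near 0 in all 6.

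Without control replicate 2 the median difference of the 75 members was 0.090, with 48 positive (64%, against 55.3% of all tested unigenes). On leaving it out, 17 members turned from negative to positive and 5 from positive to negative. Still 0 members were called after adjustment, as were 0% of all tested unigenes, and an unadjusted p under 0.05 was reached by 2 (2.67%, against 4.44%). These 2 were the phosphate transporters TRINITY_DN7771_c0_g1_i1-S1A and TRINITY_DN1788_c0_g1_i1-C1A. That comparison rests on 2 control libraries against 3. When the minimum mean FPKM was applied again to the 5 libraries left, 16 of 20087 unigenes passed (0.0797%), 0 of them members, and an unadjusted p under 0.05 was reached by 1 member (1.33%, against 3.78%).

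Above 0 in all 6 libraries were 66 of the 75 members. TRINITY_DN4947_c0_g1_i2-S1A (348 bases) was listed at 0 in all 3 control libraries and was above 0 only in taurine replicate 1, at 1.72, which was an estimated 1.74 fragments. No member was listed at 0 in all 3 taurine libraries. Of the 62 assembled genes, 10 held 2 or more member isoforms, 23 members in all. With isoforms summed to genes, 0 of these 10 passed an adjusted p of 0.05 from limma, against 8 of all 16972 genes tested. The gene TRINITY_DN1268_c0_g1-S3A, a phosphate transporter, summed to 9.15, 23.17 and 10.96 in control and to 13.5, 10.2 and 13.0 with taurine, and again control replicate 2 lay above the rest.

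The genes around sugar uptake were taken from lists chosen by words in the annotation. Sugar kinases and enzymes of pentose entry, which start the use of a sugar inside the cell, numbered 46 unigenes. Among them was TRINITY_DN7511_c0_g1_i1-S2A, with the KEGG entry of a retinol dehydrogenase and a best match named L-xylulose reductase. Of the 46, 22 had a positive and 24 a negative difference (median -0.011). An unadjusted p under 0.05 was reached by 0 of them, against 2.66% of all tested unigenes. The hexokinase TRINITY_DN25_c1_g1_i2-C2A, which phosphorylates glucose on entry, had 133, 251 and 194 in control and 156, 158 and 177 with taurine. Control replicate 2 was the highest library here too, as in the sum of the list, which was 1387 ± 565 (SD, n = 3) in control and 1128 ± 22.2 (SD, n = 3) with taurine.

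Sugar-releasing enzymes numbered 120, among them a unigene with the KEGG entry of a glucan 1,3-beta-glucosidase. They had 59 positive and 61 negative differences (median -0.0011). The adjusted threshold was passed by 0 of them, against 0.0393% of all tested unigenes. At an unadjusted p under 0.05, 1 was higher and 1 lower with taurine, against 1.63% and 1.03% of all tested unigenes. The glucoamylase TRINITY_DN14_c0_g1_i7-S3A, which frees glucose from starch, had 2886, 4051 and 2793 in control and 2920, 2957 and 2939 with taurine. Words for glucose repression and sensing matched 7 unigenes, among them a SWI/SNF chromatin component and a unigene with the KEGG entry of a tRNA-splicing endonuclease. They had 4 positive and 3 negative differences (median 0.0084). Here too 0 had an unadjusted p under 0.05, against 2.66% of all tested unigenes. The highest of the 7, TRINITY_DN11296_c0_g1_i1-S3A, annotated as the zinc-finger repressor CreA, had 101, 85.7 and 109 in control and 123, 95.6 and 125 with taurine, a log2 difference of 0.21 (SE 0.14). TRINITY_DN5031_c0_g1_i2-C1A, a low transcript with the same annotation, had 2.11, 3.60 and 2.33 in control and 1.41, 2.33 and 2.41 with taurine, a log2 difference of -0.27 (SE 0.26).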

How the data were processed

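RNA of 6 libraries (3 control, 3 taurine) was sequenced on the DNBSEQ platform, assembled de novo and quantified as FPKM by the authors, whose submission notes name Bowtie2 2.2.5, RSEM 1.2.8 and DESeq. FPKM was used as deposited. The authors' own comparison columns (fold changes with p and q values) were left unused, and 0 columns of per-sample values were left aside. Groups came from the sample labels, and the taurine dose from the study's methods.

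Unigenes averaging an FPKM of 0.1 or more were tested on log2(FPKM + 1) with limma 3.58.1 (lmFit and eBayes with trend, two-sided, Benjamini-Hochberg) in R 4.3.3. Tables were made with Python 3.11.15 and pandas 2.3.3. On simulated fragments for 20381 unigenes (dispersion set to 0.03), 200 of FPKM at least 10 and at least 500 bases were changed by 2 on the log2 scale. Of these 91% were called in the right direction, and 54 unchanged ones were called. Most members lie below that level, and the simulation held no library that stood apart as control replicate 2 did. The rate of 91% therefore does not apply to the family, nor to its high members such as the hxt1 unigene. Fragments were estimated from the steps of low values on unigenes of 400 to 600 bases, a rule chosen once the data had been seen, under which 62.9% to 65.7% of those values came within 0.1 of whole fragments.

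Members, classes and lists were chosen with earlier results of these data known. Members named are the 10 highest by mean FPKM, the 10 with the lowest p, the 5 largest rises and falls of mean FPKM at least 1, the highest of each class and 1 listed by the study; DN1926 isoform i1, DN4947, DN1268 and the genes of the lists were named besides. Unigene and protein sequences were not used here.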

Additional observations from a re-analysis of the deposited data

How the results depend on the processing

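Another 15 settings were chosen at the start and 7 after the data were seen (limma voom on estimated fragments, and leaving out each library with the minimum mean FPKM applied again). In all 22, 0 sugar transporters passed the adjusted threshold. The count of unigenes past it, 8, was 0 with a pseudocount of 0.01, 15 with sample quality weights, 2 with voom, and 0 to 2 when 1 library was left out. With the minimum applied again to the 5 libraries left, it was instead 16 when control replicate 2 was dropped and 5 for control replicate 3, 3 when taurine replicate 1 was dropped and 13 for taurine replicate 2, and within 1.5 times of 8 for the other two, so this count depends on which low unigenes are kept. Members with an unadjusted p under 0.05, 1 as reported, were 0 at a minimum mean FPKM of 1 (2.28% of all unigenes tested there), 5 with quality weights (6.67% of members, 10.1% of all), 2 with voom (2.67% and 2.85%), and 1 to 3 when 1 library was left out (2.74% to 4.44% of all).

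The labels do not say whether libraries with the same replicate number belong together. Their deviations correlated at r = -0.022, -0.037 and -0.0054 over 14589 unigenes, so no shared replicate effect was seen, which cannot exclude pairing. With the replicate block, 0 unigenes passed and 0 members had an unadjusted p under 0.05 (2.43% of all).

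Leaving out 1 library gave the members a median difference of -0.092 to 0.090, the upper end without control replicate 2. Of the 23 named members 15 kept their direction in every alternative that could be fitted and 8 did not; 3 of the 15, below a mean FPKM of 1, could not be fitted at that minimum. Of the 15, 11 moved by over 1.5 times when 1 library was left out. The quality weights were 0.593, 0.229 and 4.34 for control replicates 1, 2 and 3. With them the control side rests mostly on control replicate 3, and control replicate 2 has the lowest weight. The difference then turned positive for TRINITY_DN7771_c0_g1_i1-S1A (0.096), TRINITY_DN1788_c0_g1_i1-C1A (0.22), TRINITY_DN2409_c0_g1_i1-C1A (0.12), TRINITY_DN7641_c0_g1_i1-C3A (0.014), TRINITY_DN6721_c0_g1_i1-C1A (0.024) and TRINITY_DN2508_c2_g2_i1-C2A (0.19). The cause was not tested. The TRINITY_DN2409_c0_g1_i1-C1A difference was also positive without taurine replicate 2 (0.042), under either minimum. When 1 library was left out, the range was -0.71 to 0.27 for TRINITY_DN1527_c0_g1_i1-S3A, -0.23 to 0.11 for TRINITY_DN7771_c0_g1_i1-S1A, -0.30 to 0.28 for TRINITY_DN1788_c0_g1_i1-C1A, -0.17 to 0.0019 for TRINITY_DN3418_c0_g2_i1-S3A, -0.17 to 0.090 for TRINITY_DN2409_c0_g1_i1-C1A, -0.57 to 0.059 for TRINITY_DN7641_c0_g1_i1-C3A, -0.25 to 0.016 for TRINITY_DN6721_c0_g1_i1-C1A and -0.93 to 0.26 for TRINITY_DN2508_c2_g2_i1-C2A. The lowest adjusted p of a named member over all alternatives was 0.319 from limma. Of the 75 members 26 lie below a mean FPKM of 1, and detection of differences at that level was not tested.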
